A study of Mus musculus with 2 samples.

Results

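The BCL2 family decides whether a cell's mitochondria release the factors that start its death. The genes described here are 8 members of that family in mouse bone marrow cells sorted for surface E-cadherin. They were taken as the rows of the deposited gene lists with the symbols Bcl2, Bcl2l1, Mcl1, Bcl2a1a, Bcl2a1b, Bcl2a1d, Bcl2l11 and Bax. They are 8 of 31053 genes counted, and each symbol stood in 1 row of both libraries. The members were followed across the sort, across the share of a cell's UMIs (unique molecular identifiers, each standing for 1 captured transcript) that came from the basophil protease gene Prss34, and across cell-cycle state.

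The samples are 2 libraries of 10x Genomics 3′ single-cell RNA sequencing, 1 from cKIT+ and 1 from cKIT- cells, all of them bone marrow cells sorted for surface E-cadherin. By flow cytometry the study saw no E-cadherin together with lymphoid, myeloid or erythroid lineage markers. Whether cells of those lineages in these libraries carry it was not tested. KIT, the receptor for stem cell factor, marks the progenitors, and the study sets them beside the cKIT- cells that lie on the way to basophils and mast cells. The labels give the strain as FVB. The study's text calls the mice wild-type while a legend names Vav-iCre;mTmG mice, in which a Vav-driven Cre switches a membrane reporter in blood cells, and cells of several mice were pooled without a mark of their origin. Neither group carried a treatment or a deletion of Cdh1 in these sources, and ages were not given.

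With 1 library per sort there is no replicate check. Levels are CPM, a gene's UMIs per 1000000 UMIs summed over a group of cells, with an exact Poisson 95% interval in brackets, and ratios of CPM carry an exact binomial 95% interval. These intervals cover counting error only, and no p-value is given. A gene was counted past 2-fold when its CPM differed by at least 2 times and reached 10 CPM in 1 of the groups compared. At these settings, the share of all tested genes past the same limit is printed where each comparison is described. Recounts under other settings are given without that share.

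Pro-survival members such as BCL2, BCL-XL (from Bcl2l1), MCL1 and A1 (from the Bcl2a1 copies) hold the effector proteins BAX and BAK in check. BH3-only proteins, among them BIM (from Bcl2l11), respond to stress or loss of growth factor by binding the pro-survival proteins, which frees the effectors to open the outer mitochondrial membrane. Basophils are granulocytes that respond to cytokines such as IL-3, and neutrophils, the most common granulocytes, are known to need MCL1, a protein with fast turnover.

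The A1 genes are recent copies of each other, so their sequences are shown first, because they set what can be read from their counts. On GRCm38 (GENCODE M21 annotation), Bcl2a1a lies at chr9:88956900-88962419 on the plus strand, Bcl2a1b at chr9:89199209-89207827 on the plus strand and Bcl2a1d at chr9:88723285-88731914 on the minus strand. Over 516 aligned coding bases, Bcl2a1a differed from Bcl2a1b at 11 positions and from Bcl2a1d at 7, and Bcl2a1b differed from Bcl2a1d at 6. Of the 56-base windows in the last 500 transcript bases, where 3′ reads fall, 62.2% of those of Bcl2a1a, 84.0% of those of Bcl2a1b and 83.6% of those of Bcl2a1d also occurred in another gene. The last 56 coding bases (461 to 516, exonic) are printed 5′ to 3′ with the only position that differs in capitals.
Bcl2a1a: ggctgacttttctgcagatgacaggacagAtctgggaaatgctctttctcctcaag
Bcl2a1b: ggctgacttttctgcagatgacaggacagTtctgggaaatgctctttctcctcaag
Bcl2a1d: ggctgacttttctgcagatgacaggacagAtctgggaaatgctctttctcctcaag
A read from this stretch can tell Bcl2a1b from the other copies at 1 base and cannot tell Bcl2a1a from Bcl2a1d. Their separate counts are therefore uncertain, and their sum is given beside them. No window of Bcl2, Bcl2l1, Mcl1 or Bcl2l11 was shared with another gene, and 21.8% of the windows of Bax were shared with Gm45808.

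The promoters of Bcl2 and Mcl1 are shown because the results turn most on these members. The 250 bases before each start site come from RefSeq on GRCm38.p6, with the GC box GGGCGG, on either strand, in capitals.
Bcl2 (chr1:106714291-106714540, minus strand): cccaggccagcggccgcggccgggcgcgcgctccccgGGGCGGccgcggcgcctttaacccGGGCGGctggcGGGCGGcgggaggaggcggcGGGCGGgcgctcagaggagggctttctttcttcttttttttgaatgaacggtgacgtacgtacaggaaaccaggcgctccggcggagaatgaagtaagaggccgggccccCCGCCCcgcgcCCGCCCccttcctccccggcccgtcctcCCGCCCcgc
Mcl1 (chr3:95658471-95658720, plus strand): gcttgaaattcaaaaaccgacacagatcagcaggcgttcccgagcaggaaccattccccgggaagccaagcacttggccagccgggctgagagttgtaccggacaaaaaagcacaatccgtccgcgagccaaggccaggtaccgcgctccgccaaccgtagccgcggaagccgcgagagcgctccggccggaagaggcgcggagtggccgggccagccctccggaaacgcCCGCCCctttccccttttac
The Bcl2 stretch held 7 GC boxes at 74.8% GC, and the Mcl1 stretch held 1 at 64.4% GC. A GC box stood in 32.7% of 32851 promoters of the same length. Other motifs were searched for on both strands, and neither stretch held any of them. AGATAA, bound by GATA factors, stood in 9.99% of promoters. TTCNNNGAA, bound by STAT factors, stood in 7.02%. TGACGTCA, the cAMP response element, stood in 1.55%. CACGTG, an E-box, stood in 6.02%. TATAAA, of the TATA box, stood in 12.4%. These are matches of letters and say nothing of binding.

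The cKIT+ library held 6632 cells and 95477153 UMIs, and the cKIT- library held 3745 cells and 24033994 UMIs. After the filter of the study, 6479 and 3662 cells were kept, with medians of 13039 and 4416.5 UMIs. The sorts matched their labels: Kit stood at 37.1 CPM in the cKIT+ and 0.875 CPM in the cKIT- library, and Cdh1, which encodes E-cadherin, at 62.8 and 193 CPM. A cluster was called basophil-like when it had 5 or more of the 10 basophil markers on and no lead from another lineage, which gave 3482 cKIT+ cells (53.7%) and 3172 cKIT- cells (86.6%). The members and their pathway genes were kept out of the clustering. An unnamed cluster with 8 of 10 basophil markers on, and Bcl2 and Trbc2 among its leading genes, held 6.44% of the cKIT+ and 1.64% of the cKIT- cells and was kept apart. Only 10 barcodes occurred in both libraries.

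Basophil-like cells were called Prss34-high from 2% of their UMIs, resting below 0.1% of UMIs in S and G2/M genes and cycling from 0.3%. The states are ranges and not cell types: 453 cKIT+ and 143 cKIT- basophil-like cells lay between 1.5% and 2.5% Prss34, and 818 and 398 lay between the cycle limits and were left out. The cKIT+ library gave 417 Prss34-low resting, 66 Prss34-high resting, 1191 Prss34-low cycling and 990 Prss34-high cycling cells. The cKIT- library gave 1396, 435, 27 and 916 in the same order.

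As a part of all UMIs, Bcl2 was at its lowest, and Mcl1 at its highest, in the Prss34-low resting cells of the cKIT- sort, and Bax stayed within a narrow range. Between the states of the cKIT+ library Bcl2 and Mcl1 did not run apart in this way, though they did in a small group of its Prss34-low resting cells described below. Counted per cell, both Bcl2 and Mcl1 were at their lowest in those cKIT- cells, at 0.0953 and 0.785 UMIs, which held the fewest UMIs of all the states. Bcl2l1 and Bcl2l11 were low, mostly below the 10 CPM minimum, and the Bcl2a1 copies were close to 0.

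**Figure D1:**
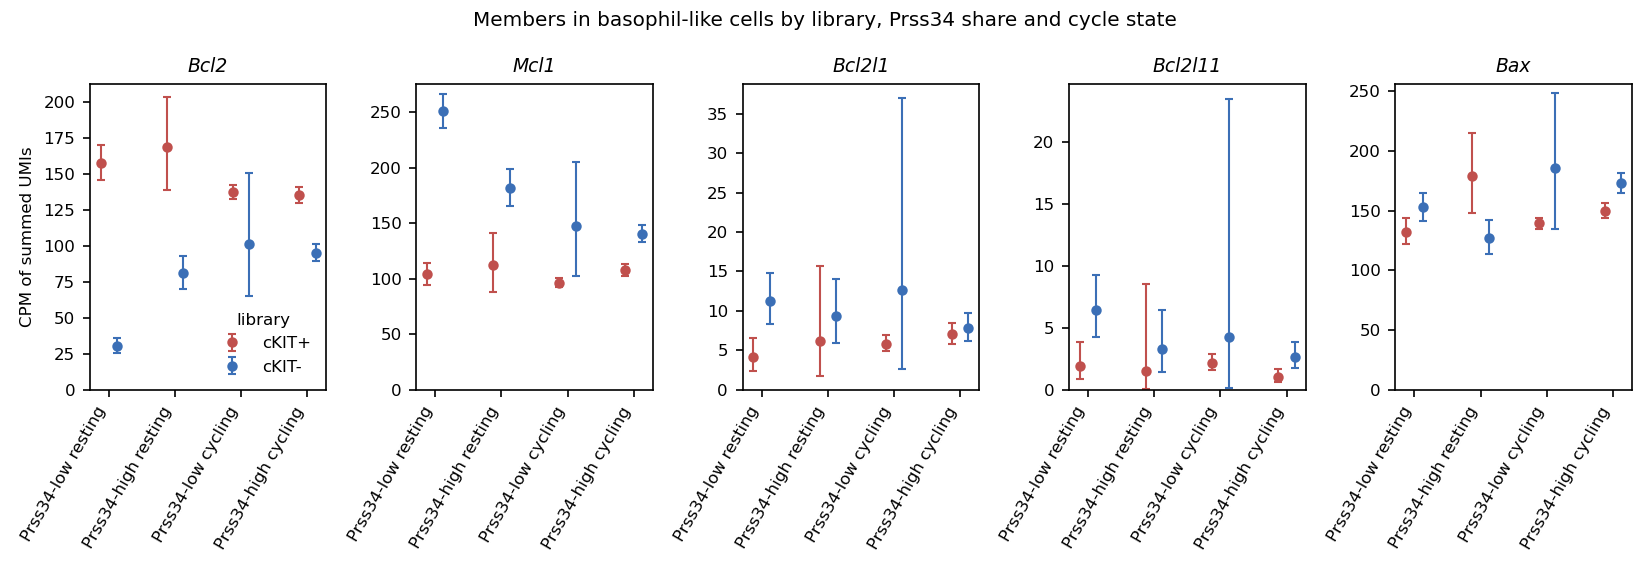
CPM of summed UMIs (vertical axes, each starting at 0 with its own scale) of 5 members in basophil-like cells of the cKIT+ (red) and cKIT- (blue) library, by Prss34 share and cycle state. Points are single values of 1 library and bars are exact Poisson 95% intervals. The Prss34-low resting cells of the cKIT- library stand at 30.4 CPM for Bcl2 and 251 CPM for Mcl1, against 157 and 104 CPM in the cKIT+ library.

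Bcl2 (chr1:106538178-106714274, minus strand), the founding pro-survival member, was at 157 CPM (146 to 170, 650 UMIs) in Prss34-low resting and 169 CPM (139 to 203) in Prss34-high resting cells of the cKIT+ library. Its cKIT+ cycling cells stood at 137 CPM (132 to 142) when Prss34-low and 135 CPM (130 to 141) when Prss34-high. Across these cKIT+ states Bcl2 thus varied little. In the cKIT- library Bcl2 was at 30.4 CPM (25.5 to 36.1, 133 UMIs) in Prss34-low resting cells, 80.8 CPM (69.9 to 92.8) in Prss34-high resting cells and 95.1 CPM (89.2 to 101) in Prss34-high cycling cells. The 27 Prss34-low cycling cells of that library gave 101 CPM (64.8 to 150). The intervals of Bcl2 in the resting and Prss34-high cycling cKIT- states lay below those of every cKIT+ state.

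Within the cKIT- library, the Bcl2 level was 2.66 times as high in Prss34-high as in Prss34-low resting cells (2.12 to 3.33). It was the only member past 2-fold of 4 tested, with 4.03% of 7313 genes higher and 2.78% lower past that limit, and the ratio lay between 2.18 and 3.04 under 14 other settings. The same ratio in the cKIT+ library was 1.07 (0.867 to 1.31), where 0 of 3 members tested were past 2-fold, with 2.68% of genes higher and 6.16% lower. Per cell the Bcl2 difference in the cKIT- library was larger, at 0.0953 UMIs against 0.457. Depth moved with it, since the median was 3061.5 UMIs in the Prss34-low and 5260 in the Prss34-high resting cells, and its part in the result was not tested.

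Finer steps of Prss34, over basophil-like cells of every cycle state, gave the same picture without a single limit. In the cKIT- basophil-like cells Bcl2 was at 29.7 CPM (24.4 to 35.7) below 0.5% Prss34 and 28.9 CPM (14.4 to 51.7) from 0.5 to 1%. It was at 73.4 CPM (54.5 to 96.8) from 1 to 2% and between 93.3 and 96.8 CPM in the 3 bins above. The step in Bcl2 thus lay at about 1% Prss34 in this library. Nearly all cycling cells of this library were Prss34-high, so cycle and Prss34 cannot be told apart in these bins. In the cKIT+ cells Bcl2 lay between 126 and 157 CPM in all 6 bins.

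**Figure D2:**
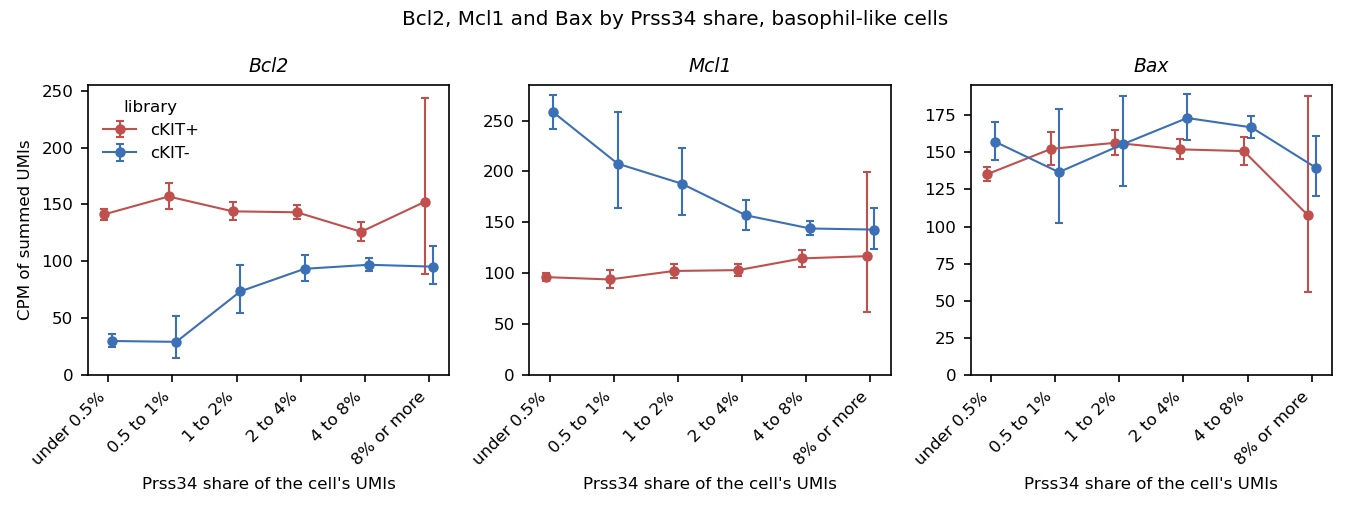
CPM of summed UMIs (vertical axes from 0) of Bcl2, Mcl1 and Bax in basophil-like cells by the share of a cell's UMIs from Prss34 (horizontal axes, 6 bins), for the cKIT+ (red) and cKIT- (blue) library, with exact Poisson 95% intervals. In the cKIT- library Bcl2 goes from 29.7 to 95.2 CPM and Mcl1 from 258 to 143 CPM between the lowest and the highest bin. The highest cKIT+ bin holds 11 cells.

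Mcl1 (chr3:95658788-95663176, plus strand), a pro-survival member with a short-lived protein, had its highest CPM where Bcl2 had its lowest. In the cKIT- library it was at 251 CPM (236 to 266) in Prss34-low resting, 181 CPM (165 to 199) in Prss34-high resting and 141 CPM (133 to 148) in Prss34-high cycling cells. Its bins by Prss34 went down from 258 CPM (242 to 275) below 0.5% to 143 CPM (123 to 164) at 8% or more. In the cKIT+ library Mcl1 was at 104 CPM (94.5 to 114) in Prss34-low resting, 112 CPM (87.7 to 141) in Prss34-high resting, 96.5 CPM (92.5 to 101) in Prss34-low cycling and 108 CPM (103 to 113) in Prss34-high cycling cells. No cKIT+ interval of Mcl1 overlapped those of the 2 resting cKIT- states. The ratio of Prss34-high over Prss34-low resting cells was 0.724 (0.647 to 0.809) in the cKIT- library, short of 2-fold, and 1.07 (0.827 to 1.38) in the cKIT+ library. Per cell the direction turned in the cKIT- library, where Mcl1 was at 1.03 UMIs in Prss34-high and 0.785 in Prss34-low resting cells, a ratio of 1.31, the same direction as Bcl2.

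Bax (chr7:45461697-45466898, minus strand), the effector, varied less. It was at 132 CPM (122 to 144) in Prss34-low resting, 179 CPM (148 to 215) in Prss34-high resting, 139 CPM (135 to 144) in Prss34-low cycling and 150 CPM (144 to 156) in Prss34-high cycling cKIT+ cells. In the cKIT- library it was at 153 CPM (141 to 165), 127 CPM (114 to 142), 185 CPM (135 to 249) and 173 CPM (165 to 181) in the same order. No comparison put Bax past 2-fold at the limits used here, though its ratio of Prss34-high over Prss34-low resting cKIT+ cells came to 2.02 with cycle limits of 0.05% and 0.5%. Its lowest and highest ratios over the 10 comparisons were 0.710 (0.573 to 0.886), for cKIT- over cKIT+ Prss34-high resting cells, and 1.35 (1.10 to 1.66), for Prss34-high over Prss34-low resting cKIT+ cells.

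Bcl2l1 (chr2:152780668-152831728, minus strand), which encodes BCL-XL, stood between 4.12 and 7.06 CPM in the cKIT+ and between 7.76 and 12.6 CPM in the cKIT- states, the last from 3 UMIs. Bcl2l11 (chr2:128126038-128162547, plus strand), which encodes the BH3-only protein BIM, stood between 1.03 and 2.18 CPM in the cKIT+ and between 2.65 and 6.40 CPM in the cKIT- states. In Prss34-low resting cells, Bcl2l11 had 28 UMIs in the cKIT- and 8 in the cKIT+ library. Over all basophil-like cells, cKIT- over cKIT+ ratios of CPM were 1.43 (1.18 to 1.73) for Bcl2l1 and 1.91 (1.41 to 2.58) for Bcl2l11. Per cell they were 0.581 and 0.778, the other direction. Neither gene thus exceeded 12.6 CPM in basophil-like cells of either sort. The Bcl2a1 copies together gave 8 UMIs in 3482 cKIT+ basophil-like cells (0.145 CPM, 0.0626 to 0.286) and 1 UMI in 3172 cKIT- cells. Bcl2a1d had none in the basophil-like cells of either library. For 0 of 3482 and 0 of 3172 cells with a UMI, a count of 3 allows shares of up to 0.0862% and 0.0946%. The exact interval allows up to 0.106% and 0.116%.

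The comparison of the sorts asks what separates the cKIT- cells from the cKIT+ progenitors. Over all kept cells, Bcl2 was at 87.1 CPM in the cKIT- and 110 CPM in the cKIT+ library, Mcl1 at 191 and 105 CPM and Bax at 160 and 131 CPM. None of 3 members tested was past 2-fold, with 9.06% of 8023 genes higher and 7.3% lower in the cKIT- library. Among basophil-like cells Bcl2 was at 81.9 and 142 CPM, a ratio of 0.578 (0.548 to 0.609), and Mcl1 at 169 and 101 CPM, a ratio of 1.68 (1.61 to 1.75). Again 0 of 3 members were past 2-fold, with 8.45% of genes higher and 7.09% lower. Bcl2 differed more among basophil-like cells than over all kept cells.

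Within 1 state the sorts differed most in the Prss34-low resting cells. Bcl2 had a cKIT- over cKIT+ ratio of 0.193 (0.159 to 0.233), a difference of 5.17 times, and it lay between 0.180 and 0.452 under 14 other settings. Mcl1 had a ratio of 2.41 (2.15 to 2.70) and Bcl2l1 one of 2.72 (1.54 to 5.04), from 49 and 17 UMIs. Of 4 members tested, Mcl1 and Bcl2l1 were past 2-fold higher, where 17.6% of genes were, and Bcl2 was past 2-fold lower, where 18.4% were. Bcl2l1 was tested only because it reached 10 CPM in the cKIT- cells, at 11.2 against 4.12 CPM. Its place past 2-fold followed from that minimum and is no separate result. The Mcl1 ratio came to 1.995 when cells were weighted equally, and that of Bcl2l1 to 1.23 with all kept cells in place of basophil-like cells and 1.40 with cycle limits of 0.05% and 0.5%, all short of 2-fold. Bcl2 stood at the 5.47th percentile of the ratios of all tested genes and Mcl1 at the 87.2th.

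In Prss34-high resting cells the Bcl2 ratio was 0.479 (0.378 to 0.610), which made it 1 of 3 tested members past 2-fold, beside 10.8% of genes higher and 9.19% lower. It lay between 0.427 and 0.615 under 13 other settings and fell short of 2-fold under most of them. In Prss34-high cycling cells the ratio was 0.703 (0.651 to 0.758) and that of Mcl1 1.31 (1.22 to 1.40), and 0 of 3 members were past 2-fold, with 2.38% of genes higher and 2.13% lower. The direction of Bcl2 and Mcl1 in CPM was the same in all 3 states, which share no cells but come from the same pair of libraries. The 3 comparisons within a state were added after the values had been seen.

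CPM is relative to a cell's total, and the cKIT- cells held fewer UMIs. Among Prss34-low resting cells the medians were 10504 UMIs in the cKIT+ and 3061.5 in the cKIT- library. Counted per cell, Bcl2 was at 1.56 and 0.0953 UMIs, so the direction held. Mcl1 was at 1.03 UMIs per cell in the cKIT+ and 0.785 in the cKIT- cells, a ratio of 0.761, which turned its direction. Bax turned as well, with a per-cell ratio of 0.365. Over all kept cells and over basophil-like cells, Mcl1 had per-cell ratios of 0.807 and 0.684, also the other way from its CPM. In Prss34-high resting and Prss34-high cycling cells they were 0.929 and 0.874, while those of Bcl2 were 0.274 and 0.470. Mcl1 thus took a larger part of a smaller total. The study's methods also give fewer sequencing reads per cell for the cKIT- library. Less RNA per cell, smaller cells, lower capture and shallower sequencing cannot be told apart here.

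**Figure D3:**
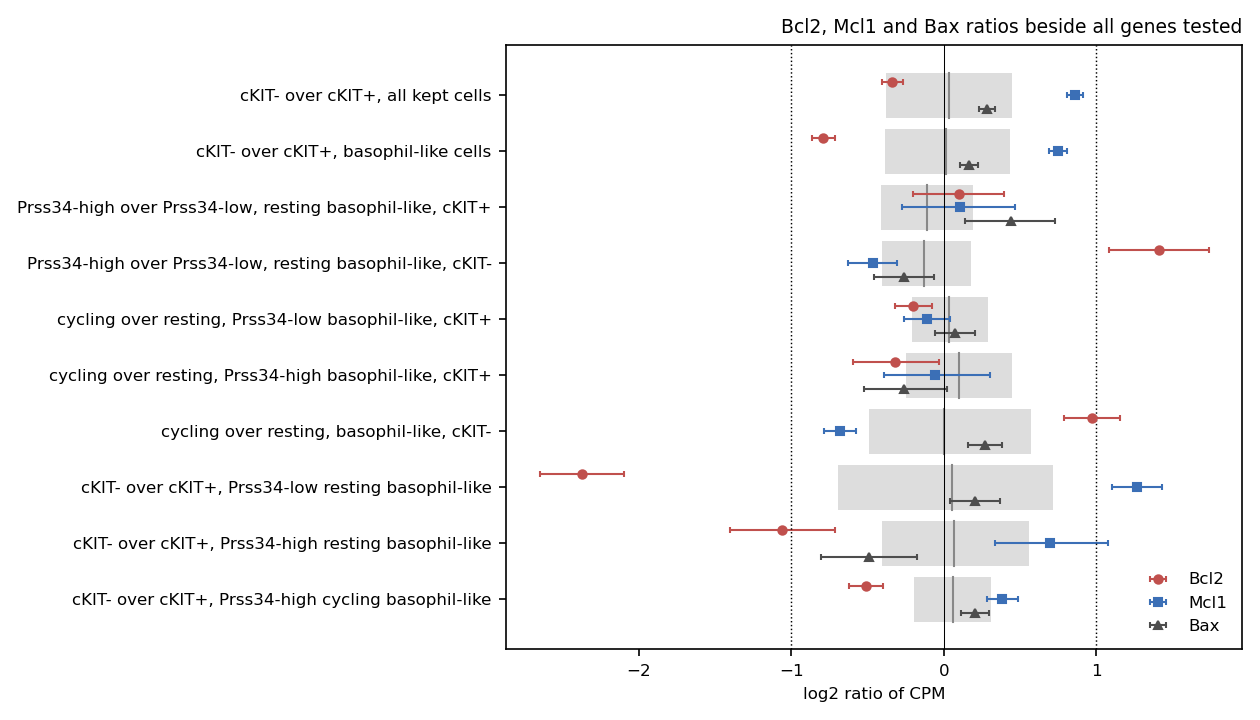
Log2 ratio of CPM (horizontal axis) of Bcl2 (circles), Mcl1 (squares) and Bax (triangles) in the 10 comparisons, with exact binomial 95% intervals. Grey boxes span the middle quartiles of all tested genes with their median, and dotted lines mark 2-fold. Bcl2 lies past 2-fold in 3 comparisons, with ratios of 2.66, 0.193 and 0.479, and Mcl1 in 1, with a ratio of 2.41.

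The Prss34-low resting cells of the sorts did not belong to the same clusters, and this moved with Bcl2 and Mcl1. Of the 417 cKIT+ cells, 335 were in cluster 1 (80.3%), led by Apoe and Sox4, and 65 in cluster 0 (15.6%), led by Cd7, Ccl4 and Il7r. Of the 1396 cKIT- cells, 1182 were in cluster 0 (84.7%) and 214 in cluster 4 (15.3%). In cluster 1 the cKIT+ cells had Bcl2 at 162 CPM (150 to 175) and Mcl1 at 94.97 CPM (85.5 to 105). In cluster 0 the cKIT+ cells had Bcl2 at 46.1 CPM (19.9 to 90.9, 8 UMIs) and Mcl1 at 282 CPM (209 to 373, 49 UMIs), beside 24.7 CPM (19.7 to 30.5) and 266 CPM (249 to 283) in the cKIT- cells of that cluster. The median depth was 2818 UMIs in these cKIT+ cells of cluster 0 and 11069 in those of cluster 1, and its part was not tested. The low Bcl2 and high Mcl1 were thus also seen in the few cKIT+ cells of the cluster that makes up most of the cKIT- state. Per cell, those cKIT+ cells of cluster 0 had 0.123 UMIs of Bcl2 and 0.754 of Mcl1, against 1.86 and 1.09 in cluster 1, so Mcl1 was high there only as a part of the total.

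Over the whole of cluster 0, the cKIT- over cKIT+ ratio was 0.594 (0.289 to 1.42) for Bcl2 and 0.985 (0.739 to 1.34) for Mcl1. In clusters 2, 5 and 8, the other basophil-like clusters with at least 50 cells of each sort, Bcl2 ratios were 0.672 (0.589 to 0.765), 0.747 (0.649 to 0.858) and 0.812 (0.644 to 1.03). Mcl1 ratios there were 1.22 (1.08 to 1.37), 1.18 (1.03 to 1.34) and 1.16 (0.926 to 1.48). Within these 4 clusters, no ratio of either gene reached 2-fold between the sorts. The Bcl2 interval of cluster 0, from 8 cKIT+ UMIs, still held a 2-fold difference. The share of all genes past 2-fold within clusters is not given. Kit had 0 UMIs in the 65 cKIT+ cells of cluster 0, which allows up to 17.3 CPM, against 44.5 CPM in those of cluster 1, and the chemokine gene Ccl3 stood at 1971 CPM against 20.03 CPM. These clusters were looked at after the values of the states had been seen.

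**Figure D4:**
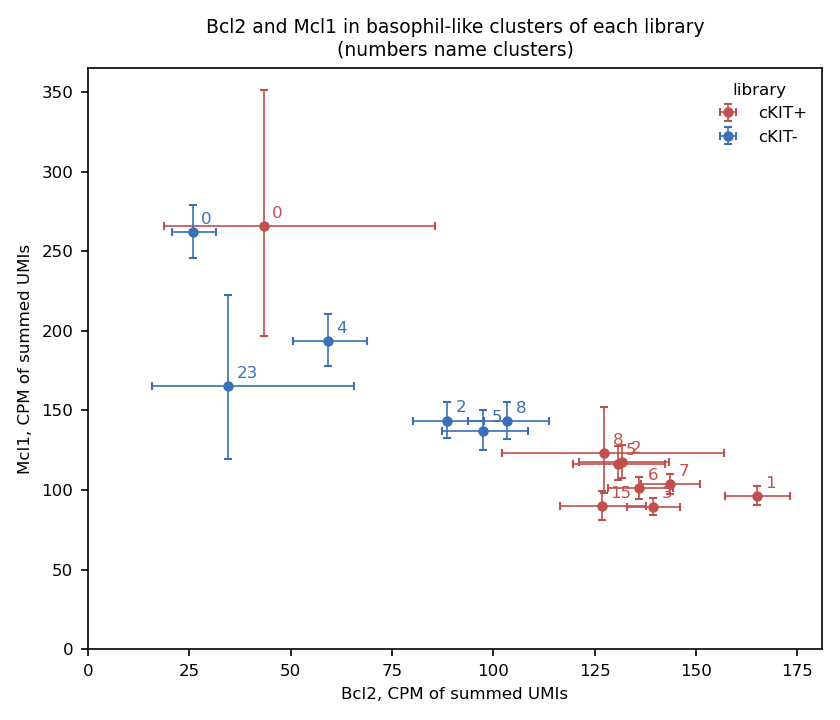
Bcl2 (horizontal axis) against Mcl1 (vertical axis), both in CPM of summed UMIs from 0, for each basophil-like cluster with at least 50 cells in the cKIT+ (red) or cKIT- (blue) library. Numbers name clusters and bars are exact Poisson 95% intervals. Cluster 0 stands at low Bcl2 and high Mcl1 in both libraries (25.8 and 262 CPM in cKIT-, 43.4 and 266 CPM in cKIT+), and cluster 1 stands at the other end (165 and 96.3 CPM).

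Cell-cycle state was compared within each library, as cycling over resting cells. Among Prss34-low cKIT+ cells Bcl2 had a ratio of 0.871 (0.8001 to 0.949), Mcl1 of 0.926 (0.835 to 1.03) and Bax of 1.05 (0.960 to 1.15), with 0 of 3 members past 2-fold beside 5.42% of genes higher and 1.29% lower. Among Prss34-high cKIT+ cells the ratios were 0.802 (0.662 to 0.980), 0.962 (0.761 to 1.23) and 0.836 (0.694 to 1.02), again with 0 of 3 past 2-fold beside 8.86% higher and 2.67% lower. The members thus differed little by cycle in the cKIT+ library in CPM. Cycling cells held more UMIs, and per cell the ratio of Bcl2 was 1.69 and 1.35, and that of Mcl1 1.80 and 1.62, among Prss34-low and Prss34-high cells.

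In the cKIT- library, Bcl2 was at 95.2 CPM in cycling and 48.6 CPM in resting cells, a ratio of 1.96 (1.73 to 2.23). Mcl1 was at 141 and 226 CPM, a ratio of 0.624 (0.580 to 0.670), and Bax had a ratio of 1.21 (1.11 to 1.30). Per cell all of these were higher in cycling cells, with ratios of 5.80 for Bcl2, 1.85 for Mcl1 and 3.57 for Bax, so the direction of Mcl1 turned with the scale. None of 4 members tested was past 2-fold, beside 14.8% of genes higher and 9.45% lower. The cycling cells of this library were nearly all Prss34-high (916 of them against 27) and its resting cells mostly Prss34-low, so cycle and Prss34 cannot be told apart in the pooled Bcl2 ratio. Among Prss34-high cells alone, Bcl2 was at 95.1 CPM in cycling and 80.8 CPM in resting cells, also higher when cycling. The intervals overlapped, which does not show equal levels, and no ratio is given for this pair.

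Split by the list that took more UMIs, S-led cells had Bax at 163 CPM (156 to 171) and G2/M-led cells at 135 CPM (131 to 140) in the cKIT+ library, and at 203 CPM (186 to 220) and 162 CPM (153 to 171) in the cKIT- library. Bcl2 stood at 126 CPM (120 to 132) and 141 CPM (137 to 145) in the cKIT+ cells, and at 99.9 CPM (88.7 to 112) and 93.4 CPM (86.6 to 101) in the cKIT- cells. In CPM, Bax was thus higher in S-led than in G2/M-led cells of both libraries, while Bcl2 showed no common direction. UMIs per cell are not given for this split, so it is not shown whether these directions hold on that scale. Bcl2l11 had 44 UMIs in 736 S-led and 23 in 1445 G2/M-led cKIT+ cells, which is 3.66 CPM (2.66 to 4.91) and 0.841 CPM (0.533 to 1.26). The same order was seen in the cKIT- library, at 5.49 CPM (3.14 to 8.92) and 1.60 CPM (0.826 to 2.79).

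For shares of cells with a UMI, 2000 UMIs were drawn from each basophil-like cell, and 13 cells of the cKIT+ and 137 of the cKIT- library were too shallow for this. Bcl2 was seen in 24.99% of cKIT+ (23.6 to 26.5) and 11.1% of cKIT- cells (9.98 to 12.2), and without thinning in 82.0% and 31.2%. In erythroid-like cells, taken as a background for free RNA of Bcl2, 0 of 64 thinned cells had a Bcl2 UMI. This allows up to 4.69% by a count of 3 and 5.601% by the exact interval. Without thinning 6 of 75 had one, at a median of 4928 UMIs against 15202.5 in the cKIT+ and 4592.5 in the cKIT- basophil-like cells. The erythroid-like cells came from the cKIT+ library, so they bear on free RNA there, and the cKIT+ share of Bcl2 lay above both limits. No such background was measured in the cKIT- library. Mcl1 was seen in 18.7% and 33.1% of thinned cells, without thinning in 75.9% and 62.2%, and Bax in 24.9% and 27.4%, without thinning in 85.6% and 55.99%. Erythroid-like cells had Mcl1 in 14.1% (6.64 to 25.02) and Bax in 12.5% (5.55 to 23.2) of thinned cells. The Mcl1 share of the cKIT+ cells lay within that interval, so by this measure it could not be told from the erythroid-like level.

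Across the basophil-like states and the other cell classes with at least 50 cells in a library, 22 groups in all and without the 27 Prss34-low cycling cKIT- cells, each member had its own order of levels. Bcl2 was highest in the unnamed cluster, at 238 CPM (199 to 282) in the cKIT- and 212 CPM (198 to 227) in the cKIT+ library. B cell-like cKIT- cells, at 168 CPM (139 to 201), overlapped the resting cKIT+ basophil-like states. The B cell-like class joined cluster 17, led by Ighd and Ms4a1 (15 cKIT+ and 159 cKIT- cells), and cluster 19, led by Vpreb1 and Igll1 (53 and 68). Its make-up thus differed between the sorts. Granulocyte/monocyte progenitor-like cells stood at 33.2 CPM (30.2 to 36.4), which overlapped the 30.4 CPM of the Prss34-low resting cKIT- cells. Erythroid-like cells had Bcl2 at 16.2 CPM and neutrophil-like cells at 25.6 CPM in the cKIT+ and 9.03 CPM, from 3 UMIs, in the cKIT- library. Keeping the unnamed cluster among the basophil-like cells left the direction of every cKIT- over cKIT+ ratio of Bcl2 as it was.

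Mcl1 was highest in B cell-like cKIT- cells, at 597 CPM (541 to 657), an interval clear of the next group. Neutrophil-like cKIT- cells (419 CPM), dendritic cell-like cKIT+ cells (418 CPM) and monocyte-like cKIT- cells (400 CPM) followed with overlapping intervals. The Prss34-low resting cKIT- cells, at 251 CPM, came after these and overlapped macrophage-like cells at 277 CPM (235 to 326). Granulocyte/monocyte progenitor-like cells (83.2 CPM) and erythroid-like cells (80.8 CPM) were the lowest. In the cKIT+ library Mcl1 was lower in B cell-like (238 CPM), monocyte-like (207 CPM) and neutrophil-like cells (125 CPM) than in the cKIT- cells of those classes. A higher Mcl1 CPM in the cKIT- library was thus also seen outside basophil-like cells, though not in every class. In the unnamed cluster that was highest in Bcl2, the sorts overlapped. Mcl1 stood there at 122 CPM (94.6 to 154) in the cKIT- and 112 CPM (102 to 123) in the cKIT+ library. The neutrophil-like class held 63 cKIT- and 432 cKIT+ cells. It joined cluster 14, with Camp and Ltf among its leading genes (5 cKIT- and 250 cKIT+ cells), and cluster 16, led by Retnlg and Mmp9 (58 and 182). Its make-up thus differed between the sorts, and the part of this in the Mcl1 difference was not tested.

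Bcl2l1 stood apart in erythroid-like cells at 98.1 CPM (78.4 to 121, 85 UMIs), where BCL-XL is known to keep maturing red cell precursors alive. It was next in B cell-like cKIT+ cells at 41.96 CPM (24.9 to 66.3), and every other group lay at 11.2 CPM or lower, each overlapping its neighbour in that order. After thinning, 29.7% of erythroid-like (18.9 to 42.4) and 1.30% of cKIT+ basophil-like cells (0.948 to 1.73) had a Bcl2l1 UMI, beside 57.3% and 8.53% without thinning. Bcl2l11 was highest in macrophage-like cells at 59.6 CPM (40.8 to 84.1, 32 UMIs), which overlapped monocyte-like cKIT- cells at 34.04 CPM (19.5 to 55.3). All basophil-like states lay below those groups.

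The Bcl2a1 copies were highest in antigen-presenting and monocytic cells. Together they stood at 119 CPM (93.1 to 150) in dendritic cell-like cells, a cluster whose leading genes also included the plasma cell genes Jchain and Igha, and at 89.4 CPM (64.4 to 121) in monocyte-like cKIT-, 67.0 CPM (46.9 to 92.8) in macrophage-like and 43.0 CPM (29.0 to 61.3) in B cell-like cKIT- cells. Bcl2a1a and Bcl2a1b gave 51.2 and 44.6 CPM of the dendritic cell-like sum and Bcl2a1d 23.1 CPM, as far as the copies can be told apart. Monocyte-like cKIT+ cells had a sum of 7.65 CPM (3.499 to 14.5), well below the monocyte-like cKIT- cells. The monocyte-like cluster also had Siglech, Klk1 and Cd209d among its leading genes. With finer clustering (resolution 2), a dendritic cell-like cluster led by these genes held 7 cKIT+ and 18 cKIT- cells. The monocyte-like cells of the sorts may therefore differ in make-up, and the part of this in the difference was not tested. Bax lay between 72.8 and 187 CPM in all groups but the neutrophil-like cells, which had 60.2 CPM (53.8 to 67.2) in the cKIT+ and 18.1 CPM (6.63 to 39.3, 6 UMIs) in the cKIT- library.

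**Figure D5:**
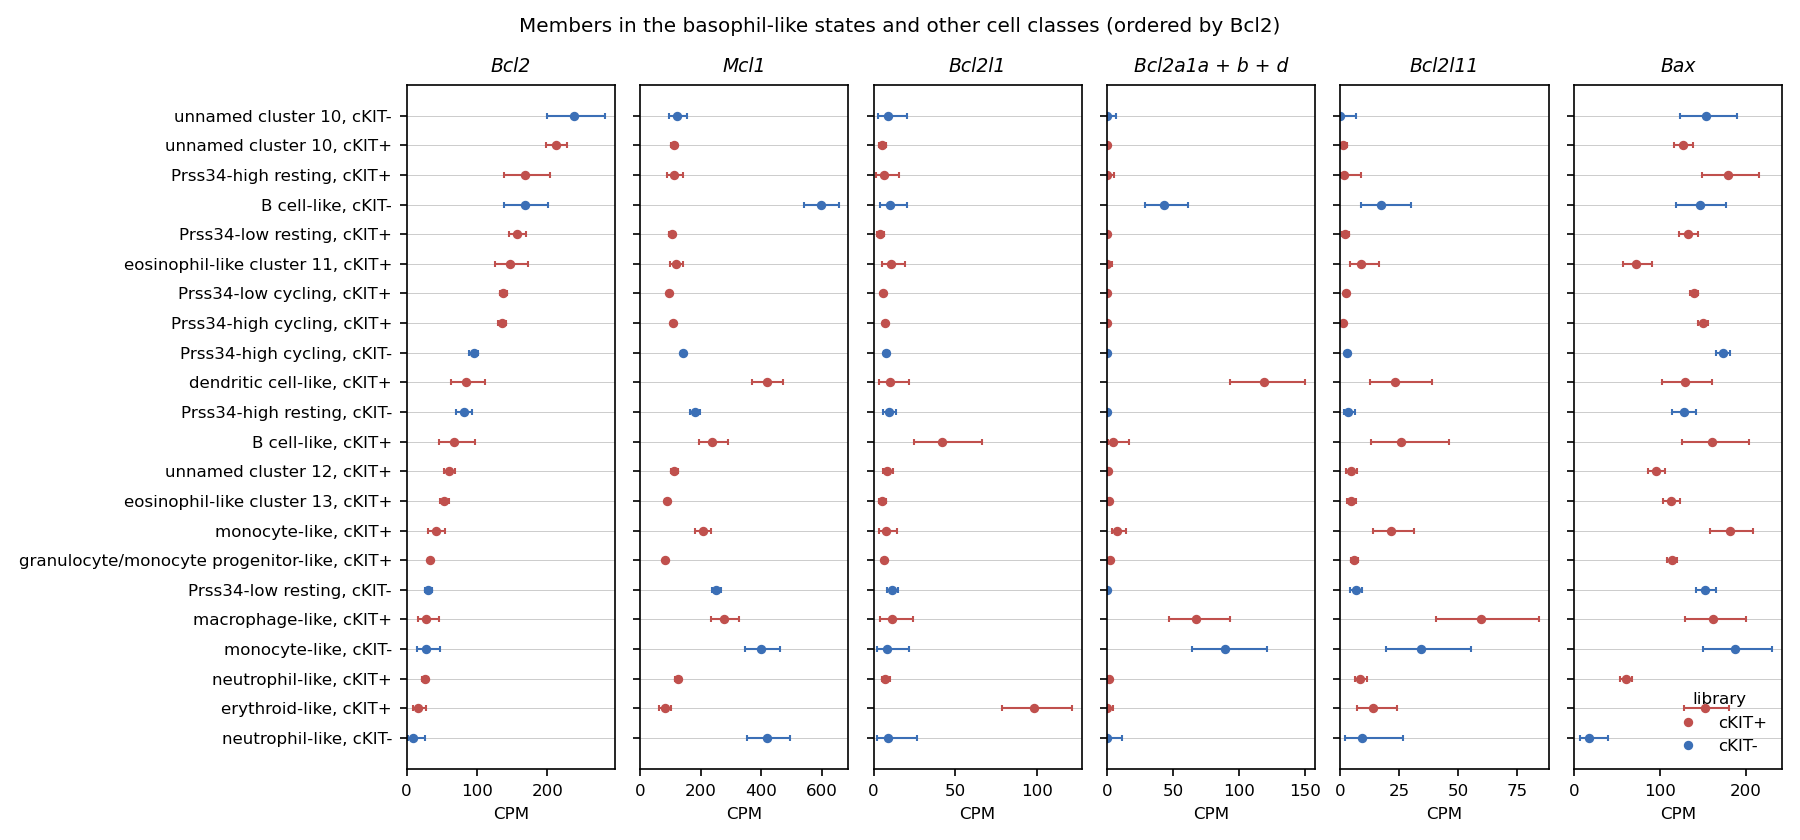
CPM of summed UMIs (horizontal axes from 0, own scale per panel) of Bcl2, Mcl1, Bcl2l1, the sum of the Bcl2a1 copies, Bcl2l11 and Bax in 22 groups of cells from the cKIT+ (red) and cKIT- (blue) library, ordered by Bcl2, with exact Poisson 95% intervals. Bcl2l1 stands out in erythroid-like cells (98.1 CPM), the Bcl2a1 sum in dendritic cell-like cells (119 CPM) and Mcl1 in B cell-like cKIT- cells (597 CPM).

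Among 5958 genes that reached 50 CPM in 1 of the groups, those with levels most like a member's were found by Pearson r of log2(CPM + 1) over the 22 groups, which share 2 libraries and are not independent. Ier5 (r = 0.966), Lyn (0.922) and Zfp36 (0.907) were most like Mcl1. Ate1 (0.820), Fosb (0.818) and Serpini1 (0.7997) were most like Bcl2, a weaker likeness. Tmem192 (0.905), 2210016F16Rik (0.900) and Marc2 (0.899) were most like Bax. Gm867 (0.914), Usp15 (0.874) and Fads3 (0.809) were most like Bcl2l1. Slc15a4 (0.902), Camk1d (0.887) and Lgmn (0.883) were most like Bcl2l11. Pltp (0.931), Cysltr1 (0.921) and Cyp27a1 (0.915) were most like Bcl2a1a, Cd83 (0.939), H2-Eb1 (0.928) and Slamf9 (0.925) most like Bcl2a1b, and Cysltr1 (0.961), Clec4b1 (0.958) and Pltp (0.933) most like Bcl2a1d. The Bcl2a1 copies had 0 UMIs in many of the 22 groups, so their r values rest on few groups. Their separate counts are also uncertain, so these 3 lists may not be distinct.

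The other family genes were taken from a list of 12: pro-survival Bcl2l2, Bcl2l10 and Bcl2a1c, effectors Bak1 and Bok, and BH3-only Bad, Bid, Bik, Bmf, Hrk, Pmaip1 and Bbc3. Only Bak1, Bad, Bid and Bbc3 reached 10 CPM in the comparisons. Bbc3, which encodes the BH3-only protein PUMA, was at 40.6 CPM (38.0 to 43.3) in all kept cKIT- and 11.99 CPM in all kept cKIT+ cells, the only 1 of 4 past 2-fold, beside 9.06% of genes higher. Among basophil-like cells its ratio was 3.09 (2.80 to 3.41), again as 1 of 4, beside 8.45% of genes higher.

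In Prss34-low resting cells, Bbc3 was at 74.3 CPM (66.5 to 82.9) in the cKIT- and 16.0 CPM in the cKIT+ library, and Bid, a BH3-only protein activated by cleavage, at 85.3 CPM (76.9 to 94.4) and 29.5 CPM. These 2 of 4 genes were past 2-fold higher, beside 17.6% of genes, and none lower. Per cell the ratio was 1.47 for Bbc3 and 0.913 for Bid, so the direction of Bid turned with the scale. The effector Bak1 was at 45.5 and 43.8 CPM, with a ratio of 1.04 (0.845 to 1.28), and Bad, a BH3-only protein held back by growth-factor signals, at 84.6 and 55.0 CPM. In the cKIT- library Bbc3 was lower in cycling than in resting basophil-like cells, with a ratio of 0.447 (0.385 to 0.518), as 1 of 4 beside 9.45% of genes lower. Per cell the Bbc3 ratio was 1.32, the other direction.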

How the data were processed

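Bone marrow cells sorted as E-cadherin+ and either cKIT+ or cKIT- were profiled in 1 10x Genomics library per sort. The kit is version 2 in the labels and version 3 in the study's methods. The authors made the deposited UMI counts with Cell Ranger 3.0.2 on mm10, per the submitters' processing notes, and the annotation release is not given in the sources used here. The deposited counts are whole numbers, not normalized, with 95477153 and 24033994 UMIs per library.

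Following the study's methods, genes seen in at least 40 cells were used to filter and cluster the cells. The 1% of cells with the most genes and the 1% with the fewest were left out of each library. The 1% with the most UMIs were left out as well, which kept 10141 of 10377 cells. Levels and ratios were taken over all 31053 genes. Cells were clustered with Seurat 5.3.0 in R 4.3.3 (2000 variable genes without 6 of the apoptosis lists, 15 components, resolution 1, 24 clusters). Clusters were named from marker lists, by rules on how many markers were on and which genes led, and details of those rules were set after the files had been seen. Scrublet in Scanpy 1.11.5 called 347 doublets (5.23%) in the cKIT+ and 15 (0.401%) in the cKIT- library. The latter share fell short of the 0.8% per 1000 cells set as the expected rate, and the reason was not tested. Doublets were kept, and the cells of highest scores were left out as an alternative.

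UMIs were summed per group and scaled to CPM in Python 3.11.15, with exact Poisson intervals for levels and exact binomial intervals for ratios and shares from SciPy 1.17.1. These cover counting error only. Genes with at least 10 CPM in 1 of the groups compared were counted past 2-fold. Intervals and counts were tested on simulated data. TMM factors came from edgeR 4.0.16. Gene positions are from GENCODE M21 (GRCm38), which held 30934 of the 31053 identifiers, and promoters from RefSeq.

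The genes named are the 8 members, other family and caspase genes past 2-fold or at 50 CPM or more, and for each member the 3 genes most like it. Members and lists were chosen with earlier results of these data known. Alternatives were other limits for Prss34, cycle, fold and CPM, other scalings, other clusterings, and cells left out. The comparisons of the sorts within a state or cluster, the split by S and G2/M genes, UMIs per cell, the shared barcodes and the unnamed cluster were added after the data had been seen. Some genes of the caspase list are not reported here.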

Additional observations from a re-analysis of the deposited data

Results flagged for a closer look

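Some ratios of CPM had opposite directions in the libraries, with counting intervals that excluded 1 on both sides. The difference between the libraries itself was not tested, since each sort has 1 library.

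The Bcl2 level in cycling over resting basophil-like cells had a ratio of 0.802 (0.662 to 0.980) among Prss34-high cKIT+ cells and 1.96 (1.73 to 2.23) in the cKIT- library. These sets are unlike, since the cKIT- ratio pooled Prss34-high and Prss34-low cells. Among Prss34-high cKIT- cells alone, Bcl2 was at 95.1 CPM in cycling and 80.8 CPM in resting cells, still the other direction from the cKIT+ ratio. The intervals of these 2 levels overlapped, which does not show equal levels, and no ratio is given for this pair. Per cell the flagged ratios were 1.35 and 5.80, in the same direction. The cKIT+ value turned to 1.03 with stricter limits for the cycle states.

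For Prss34-high over Prss34-low resting cells, the CPM of 3 genes was higher in the cKIT+ and lower in the cKIT- library. The effector gene Bax had ratios of 1.35 (1.10 to 1.66) and 0.834 (0.727 to 0.955). Bbc3, which encodes PUMA, had ratios of 1.92 (1.10 to 3.20) and 0.672 (0.541 to 0.829). Birc3, which encodes cIAP2, had ratios of 2.16 (1.12 to 3.95) and 0.508 (0.374 to 0.682). Per cell, Bax (1.35 and 1.51) and Bbc3 (1.91 and 1.21) were higher in Prss34-high cells of both libraries, and Birc3 (2.15 and 0.919) kept opposite directions. The cKIT+ side rests on 66 Prss34-high resting cells, most of them in cluster 1, while most of the cKIT- ones were in cluster 4.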

How the results depend on the processing

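No paired analysis was possible because each sort has only a single library. Depth limits Bcl2l1, Bcl2l11 and the Bcl2a1 copies, which had few UMIs in basophil-like cells. In the lists below, A is all kept cells and B basophil-like cells (cKIT- over cKIT+), C to E the same in Prss34-low resting, Prss34-high resting and Prss34-high cycling cells, F and G Prss34-high over Prss34-low resting cells in cKIT+ and cKIT-, and H to J cycling over resting cells (cKIT+ Prss34-low, cKIT+ Prss34-high, cKIT-). The genes past 2-fold numbered 1313 (A), 1216 (B), 2840 (C), 1514 (D), 341 (E), 676 (F), 498 (G), 519 (H), 885 (I) and 1881 (J). Members past 2-fold numbered 3 in C, 1 in D and 1 in G, and 0 elsewhere. Of 296 recounts, 223 stayed within 1.5 times of the main count or had the same members.

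Only the counts that moved follow. The share of all tested genes is not given for these settings, so their member counts are no result about the members. A 1.5-fold limit gave 2858 genes (A), 2763 (B), 4537 (C), 3235 (D), 1244 (E), 1919 (F), 1679 (G), 1276 (H), 2188 (I) and 3551 (J), with 1 member in A and 2 in B, D and J. A minimum of 50 CPM gave 569, 527, 1305, 478, 100, 97, 137, 186, 222 and 858 genes (A to J). At least 10 UMIs with no CPM minimum gave 4175 (A), 3489 (B), 4351 (C), 1237 (E), 1537 (F), 1183 (G), 1534 (H), 2669 (I) and 3283 (J), with 1 member in A and E. A Prss34 limit of 1% gave 380 (F). A limit of 4% gave 139 (E), 2067 (F) and 2186 (I), with 1 member in F and 0 in D. Cycle limits of 0.05% and 0.5% gave 2566 (D), 2155 (F), 843 (H) and 2374 (I), with 0 members in D, 1 in F (Bax, 2.02) and 1 in J. A single cycle limit of 0.2% gave 850 (D), 236 (F), 889 (G), 323 (H) and 381 (I). All kept cells in place of basophil-like cells gave 852 (D), 773 (G) and 964 (H). Keeping the lists among the variable genes gave 867 (D) and 222 (F), and keeping the unnamed cluster gave 872 (D) and 227 (F). D had 0 members under these last 4 settings, at resolution 2, with states set from 2000 UMIs and with totals without the 10 most abundant genes. Giving every cell the same weight gave 809 (H). It gave 1 member in B, beside 928 genes higher and 877 lower, and 1 in J, beside 1222 higher and 795 lower. J also had 1 member under TMM scaling (1208 genes higher and 679 lower), with those reduced totals (1283 and 683) and without the highest Scrublet scores. Leaving out the shared barcodes moved no count in A, B, C and G, the comparisons it was tried on.

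Of 606 other recomputed values, 513 stayed within their interval, 83 moved out of it and 10 reversed. Reversed means that a ratio whose interval excluded 1 changed direction. Values that moved could also cross 1 where the main interval held 1. Mcl1 in F, for example, went from 1.07 to 0.739 with all kept cells in place of basophil-like cells. Counted as UMIs per cell, an alternative run on B, C and D, ratios whose interval excluded 1 reversed for Bax (0.456 in B, 0.365 in C), Bcl2l1 (0.581 in B, 0.861 in C), Bcl2l11 (0.778 in B) and Mcl1 (0.684 in B, 0.761 in C, 0.929 in D). The Bcl2l1 ratio in D, whose interval held 1, came to 0.872. Outside that alternative, per-cell ratios also turned for Mcl1 in A (0.807), E (0.874), G (1.31) and J (1.85), for Bax in A (0.541), E (0.771) and G (1.51), for Bcl2l1 in A (0.529), E (0.736), G (1.51) and J (2.21), for Bcl2l11 in A (0.518), I (1.13) and J (1.51), for Bcl2, Mcl1 and Bax in I (1.35, 1.62 and 1.41) and for Bcl2 and Mcl1 in H (1.69 and 1.80). The Bcl2 ratio in I reversed to 1.03 with the cycle limits of 0.05% and 0.5%, and the Bcl2l1 ratio in A to 0.910 with every cell given the same weight. Totals without the 10 most abundant genes shifted the median log2 ratio of all genes by 0.10 in A and B and 0.12 in G. They moved the share of genes past 2-fold that were higher from 30.3% to 43.8% in F and from 59.2% to 74.5% in G, and equal cell weights moved it from 80.7% to 59.5% in H. The cause was not tested.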

Other observations

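A list of 16 caspase, apoptosome and inhibitor genes was read in the same comparisons. Between the Prss34-low resting cells of the sorts, 2 of 13 tested were past 2-fold higher in the cKIT- library, beside 17.6% of all genes, and 1 was lower, beside 18.4%. The higher ones were Birc3, at 47.1 against 10.7 CPM (ratio 4.42, 3.18 to 6.27), and Naip2, at 21.5 against 7.02 CPM (3.06, 2.00 to 4.82). Naip2 reached 10 CPM only in the cKIT- cells, so its place past 2-fold followed from that minimum. The lower one was Cycs, which encodes cytochrome c, at 16.0 against 44.1 CPM (0.363, 0.272 to 0.481). Per cell the ratio was 1.40 for Birc3, 0.968 for Naip2 and 0.115 for Cycs.

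Over all basophil-like cells, Birc3 (2.32, 2.04 to 2.64) and Naip2 (2.93, 2.46 to 3.49) were again the only 2 of 13 past 2-fold, beside 8.45% of all genes higher and 7.09% lower. Both reached 10 CPM only in the cKIT- cells, Birc3 at 21.9 against 9.44 CPM and Naip2 at 13.5 against 4.60 CPM. Their places past 2-fold thus followed from that minimum and are no separate result. Per cell the ratios of Birc3 and Naip2 were 0.946 and 1.19. Within the cKIT- library, cycling over resting cells had Cycs at 79.8 against 18.9 CPM (4.23, 3.51 to 5.13) and Birc3 at 12.8 against 38.8 CPM (0.329, 0.265 to 0.407). Per cell the ratio was 12.5 for Cycs and 0.975 for Birc3. In that comparison 14.8% of all genes were past 2-fold higher and 9.45% lower. The last 2 comparisons share the cKIT- basophil-like cells.

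An unnamed cluster of 436 cKIT+ cells had Gzmb and the mast cell gene Cma1 among its leading genes. Only 1 mast cell marker was on in this cluster, beside 5 basophil markers, and its identity was not tested. It had Kit at 171 CPM, Bcl2 at 60.2 CPM (52.7 to 68.4), Mcl1 at 113 CPM (103 to 124) and Bax at 95.2 CPM (85.7 to 105).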
